A study of Mus musculus with 8 samples.

Results

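Splicing factors and heterogeneous nuclear ribonucleoproteins (hnRNPs) were taken from the FPKM table of the study by symbol. Genes whose symbol starts with Srsf, Snrp, Sf3a, Sf3b, U2af, Prpf or Hnrnp were kept, without names that hold -ps or start with Gm. The rule gave 69 of 23761 listed genes, which fall into 10 SR proteins (Srsf), 13 Sm and U snRNP proteins (Snrp), 13 proteins of the U2 snRNP and of U2AF (Sf3a, Sf3b, U2af), 13 PRPF proteins and 20 hnRNPs. U2af1l4 is listed under 2 identifiers of the same locus. Snrpert passed the rule by its name but is annotated as a processed pseudogene of Snrpe.

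BMDMs, macrophages grown from bone marrow in medium conditioned by L929 fibroblasts, were sequenced from mice 3 months old, 4 of them LysM and 4 K2KO. LysM controls were LysM Cre/Cre, and K2KO mice carried the same 2 Cre alleles with Klf2 flox/flox, so both groups express Cre from the lysozyme M gene (Lyz2) in myeloid cells and lack an intact copy of that gene. The labels name the libraries as vehicle samples. Values are FPKM (fragments mapped to a gene, relative to transcript length and to the fragments of the whole library), with the columns numbered 0 to 3 in each group and not tied to a single mouse. On the scale of log2(FPKM + 0.1), genes that limma placed under 0.05 after adjustment, and whose log2 fold change was beyond 0.26 in size, were called.

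Splicing removes introns from new transcripts. Sm proteins form the ring around the U snRNAs, the SF3A and SF3B complexes help the U2 snRNP to hold the branch point, U2AF reads the 3′ splice site, and PRPF proteins act in the assembly and catalytic steps. SR proteins mostly favour the use of exons to which they bind, and many hnRNPs oppose it, so that the balance of both sets which exons are kept. In macrophages this machinery shapes transcripts of cytokines and of signalling adaptors.

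Klf2, the transcription factor gene that the K2KO genotype targets (chr8:72319033-72321656, GRCm38), was at 44.1, 52.9, 64.7 and 72.8 FPKM in the LysM libraries and at 45.5, 41.6, 59.2 and 59.3 FPKM in the K2KO libraries. The groups overlapped, and the log2 fold change of -0.18 (SE 0.17) did not pass the test (limma adjusted p = 0.460, exact permutation p = 0.429). These gene-level values thus do not show a loss of Klf2, and exon-level values, which could check the genotype, are not among them. The reason was not tested, and the samples are called here the libraries labelled K2KO.

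The libraries differed in more than genotype. Relative depth, read from the step size of low FPKM values, ran from 0.939 to 1.46 and was highest in K2KO0 (1.40) and K2KO1 (1.46), with no difference between the groups that passed an exact permutation test (p = 0.400). The absolute depth is unknown. The summed FPKM of all listed genes was 531755 ± 23776 in LysM and 473577 ± 23980 in K2KO (SD, n = 4, exact permutation p = 0.0571). The level of a gene relative to its own mean also followed GC content, though least in LysM2 and K2KO3. Spearman's rho over the 68 tested members was 0.59, 0.49, -0.10 and 0.42 in LysM0 to LysM3, and -0.36, -0.22, -0.68 and 0.19 in K2KO0 to K2KO3. LysM2 and K2KO3 thus departed from the rest of their groups in GC content, and results are also given without them. With transcript length the rho was -0.24, -0.56, -0.47 and -0.64 in LysM0 to LysM3 and 0.68, 0.69, 0.46 and -0.17 in K2KO0 to K2KO3, where K2KO3 again stood apart and LysM2 did not.

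The members span a wide range of base composition, from 37.0% GC in the transcript of Prpf39 to 62.2% in that of Sf3a2. To show what this range looks like, 60 coding bases of 2 of the 3 members with the lowest GC content and of the 3 with the highest are printed here in the sense direction, with G and C in capitals. Each is the stretch of the longest coding exon whose GC content is nearest to that of the whole transcript (GENCODE M21, GRCm38).
Prpf39, chr12:65042696-65042755, 36.7% GC: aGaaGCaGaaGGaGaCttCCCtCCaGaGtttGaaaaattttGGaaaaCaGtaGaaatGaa
Snrpb2, chr2:143065191-143065250, 24 of 60 bases G or C: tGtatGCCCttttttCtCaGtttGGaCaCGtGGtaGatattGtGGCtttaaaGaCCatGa
Snrpb, chr2:130173646-130173705, 63.3% GC: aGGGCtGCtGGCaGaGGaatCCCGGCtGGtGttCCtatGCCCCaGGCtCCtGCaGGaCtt
Prpf40b, chr15:99306399-99306458, 58.3% GC: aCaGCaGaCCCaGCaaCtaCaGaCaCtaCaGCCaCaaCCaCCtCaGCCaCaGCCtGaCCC
Sf3a2, chr10:80803980-80804039, 61.7% GC: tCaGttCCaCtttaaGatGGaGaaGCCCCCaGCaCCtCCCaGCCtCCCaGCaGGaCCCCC

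Of the 69 members, 68 had a mean of at least 1 FPKM and were tested. The other, Snrpn, which encodes an Sm B protein known mainly from brain, was listed at 0 in 7 libraries and at 0.0381 FPKM in K2KO1. The tested members were well expressed, with a median of 29.6 FPKM against 9.98 FPKM for all 10920 genes tested.

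In the comparison of the genotypes 12 members (17.6%) were called, against 18.4% of all genes tested. Of these, 6 were higher in the libraries labelled K2KO (background 9.84%) and 6 lower (background 8.61%). Among the higher ones were Prpf4b, Hnrnpll, Hnrnpr, Srsf11 and Srsf1, and the lower ones were Snrpe, Snrpg, Srsf9, Srsf4, Snrpc and Snrpert. The members' median log2 fold change was -0.03, against 0.01 for all genes tested. In 12 members the groups of 4 did not overlap, 7 of them higher and 5 lower, while 23.1% of all genes tested had such separation. The counts of calls are thus near the background.

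**Figure D1:**
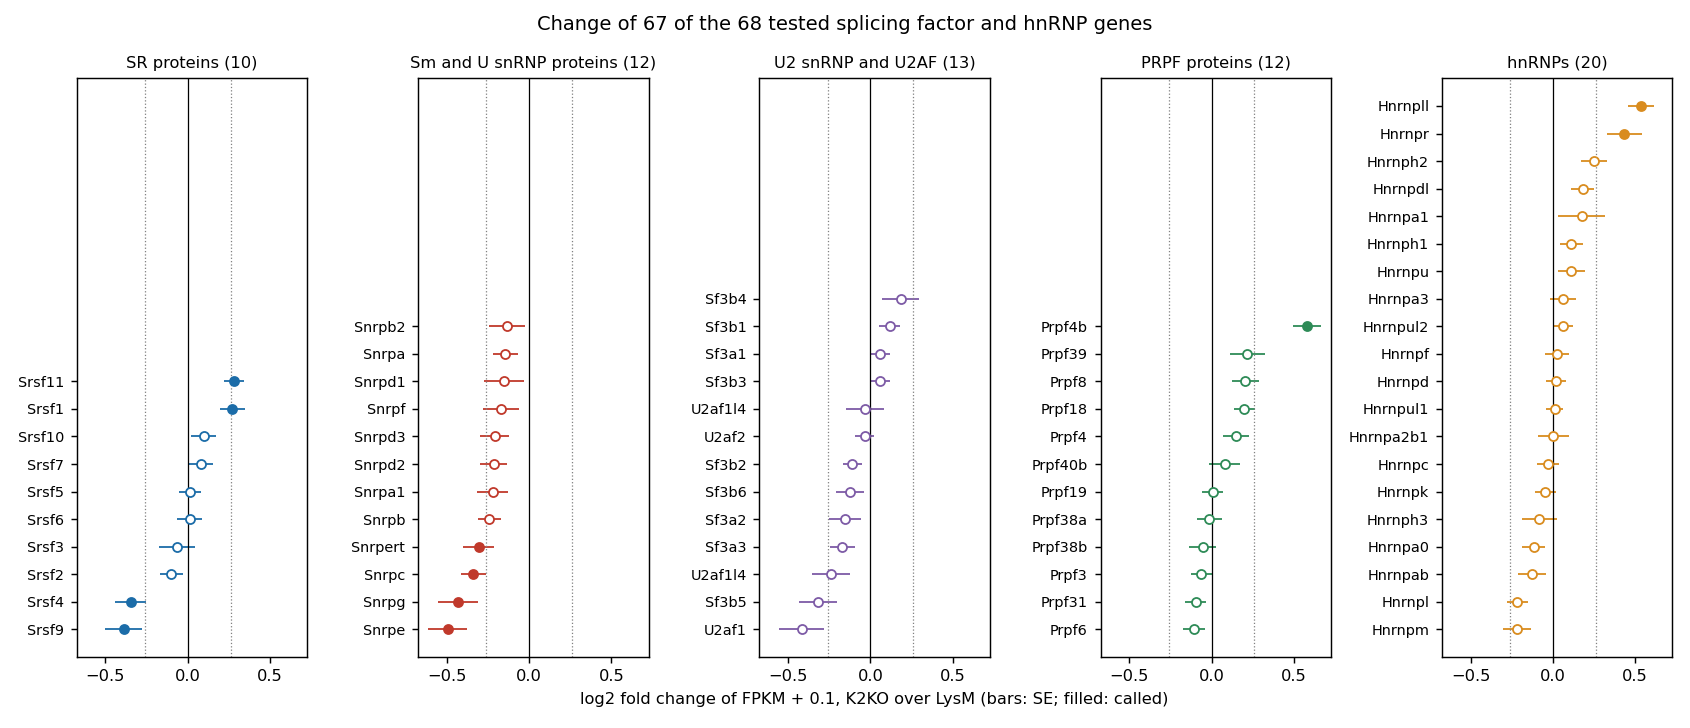
Log2 fold change of FPKM + 0.1 (K2KO over LysM, horizontal axis) of 67 of the 68 tested members in 5 panels by role. Points are estimates from limma with their SE, filled points are called, and dotted lines mark log2 changes of 0.26 either way. All 12 Sm and U snRNP members lie below 0, and the called PRPF gene shown (Prpf4b) and the 2 called hnRNPs lie above it.

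Among the 10 SR proteins, 2 were called higher and 2 were called lower in K2KO. Srsf11, an SR-related protein of the early spliceosome (chr3:158010473-158036639), was at 24.7, 21.7, 23.6 and 22.2 FPKM in LysM and at 27.8, 28.8, 29.0 and 26.3 FPKM in K2KO. The K2KO libraries all stood above the LysM libraries, and the log2 fold change was 0.28 (SE 0.06, limma adjusted p = 0.0194). Srsf1, the founding SR protein, which acts on splicing, export and translation (chr11:88047373-88053755), was at 22.3, 21, 24.9 and 20.3 FPKM against 27.8, 27.5, 26.9 and 24.5 FPKM. Here LysM2 stood above K2KO3, and the log2 fold change was 0.27 (SE 0.08, limma adjusted p = 0.0363).

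Srsf9 (chr5:115327177-115333080) was at 90.8, 105.3, 115.5 and 105.7 FPKM in LysM and at 76.2, 68.7, 78.8 and 95.8 FPKM in K2KO. K2KO3 overlapped the controls, and the log2 fold change was -0.39 (SE 0.11, limma adjusted p = 0.0369). Srsf4 (chr4:131873617-131901706), like Srsf9 a regulator of exon choice, was at 45, 45.9, 46.1 and 49.7 FPKM against 34.2, 33.3, 35.8 and 44.4 FPKM. Its groups did not overlap, although K2KO3 lay close to the controls, and it fell by 0.35 on the log2 scale (SE 0.09, limma adjusted p = 0.0313). The most abundant SR gene, Srsf5, was at 178 ± 6.37 FPKM in LysM and 180.1 ± 13.3 FPKM in K2KO (SD, n = 4), at a log2 fold change of 0.01 (limma adjusted p = 0.911). Its near-identical copy Gm12966 (copies are defined further on) was at 125 FPKM in both groups. Summed with it, Srsf5 had a log2 fold change of 0.007 (limma adjusted p = 0.947). Among the uncalled SR genes Srsf2 had the largest difference, at -0.10 (limma adjusted p = 0.314). The 4 SR calls split by base composition, with transcripts of 45.04% and 40.6% GC in Srsf11 and Srsf1 and of 56.2% and 56.8% GC in Srsf9 and Srsf4.

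The Sm and U snRNP proteins leaned one way. All 12 tested members, the pseudogene Snrpert among them, had a log2 fold change below 0, from -0.49 to -0.13 with a median of -0.22. Of these, 4 were called lower (background 8.61%, and 18.6% among genes of at most 1598 bases) and none higher. Of all 10920 genes tested 5260 lay below 0, and the genes of at most 1598 bases, a range that holds most of this group, had a median of -0.16. All 12 also lay below 0 with quantile normalization (median -0.18) and with upper-quartile scaling (median -0.17), and 11 of 12 after the GC and length correction described further on (median -0.20). None of the group was called by least squares or by limma with no filter on low values (6 at an unadjusted p under 0.05 in each), and 2 of 11 were (Snrpc and Snrpe) when near-identical copies were added to each gene. Their summed level, Snrpert included (mean 117 FPKM in LysM and 95.1 FPKM in K2KO), was 622, 702, 708 and 699.8 FPKM in LysM0 to LysM3 and 522, 526, 576 and 631 FPKM in K2KO0 to K2KO3. The mean of the sum was 683 ± 40.8 against 564 ± 51.2 FPKM (SD, n = 4), and K2KO3 overlapped LysM0. In bulk RNA of this kind fewer cells of a type and less RNA per cell cannot be told apart.

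Snrpe, the Sm E protein of the ring (chr1:133603871-133610291), had the largest decrease of all members. It was at 90.0, 115.6, 111.4 and 110.5 FPKM in LysM and at 66.0, 69.3, 77.2 and 92.2 FPKM in K2KO. K2KO3 stood slightly above LysM0, and the log2 fold change was -0.49 (SE 0.12, limma adjusted p = 0.0239). Snrpg, the Sm G protein (chr6:86371304-86379328), was at 6.34, 8.29, 8.77 and 8.63 FPKM against 6.21, 4.93, 6.12 and 6.30 FPKM. The groups did not overlap but LysM0 lay close to the K2KO libraries, and the log2 fold change was -0.43 (SE 0.12, limma adjusted p = 0.0348). Snrpc, the U1 C protein, which helps U1 to pair with the 5′ splice site (chr17:27838150-27851968), was at 53.6, 65.6, 53.3 and 61.5 FPKM against 44.5, 46.2, 46.4 and 47.2 FPKM. Its K2KO values were close together and all below the controls, and it fell by 0.34 on the log2 scale (SE 0.08, limma adjusted p = 0.0208). Snrpb, the Sm B protein and the most abundant gene of the group, was at 186 ± 4.83 FPKM in LysM and 158 ± 12.6 FPKM in K2KO (SD, n = 4), without overlap. It passed the adjusted p (0.0374 in limma), but its log2 fold change of -0.24 missed the size limit, so it was not called.

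Several of these genes have near-identical copies elsewhere in the genome, and FPKM of such genes depend on how reads were shared out. A copy was counted where at least 95% of at least 200 aligned bases were identical. Such a copy was annotated for 22 of the 68 tested members, 21 had one in the table, 17 had copies that summed to at least 1 FPKM, and in 6 the copies stood above the gene itself. The most abundant copy of Snrpe is Snrpert (chr2:131322088-131322366, inside Rnf24). To show how alike a gene and its copy can be, 60 coding bases of Snrpg are printed beside the same bases of its most abundant copy, the processed pseudogene Gm8186 (chr17:26098991-26099221), where no base differs.
Snrpg: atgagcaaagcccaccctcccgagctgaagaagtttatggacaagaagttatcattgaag
Gm8186: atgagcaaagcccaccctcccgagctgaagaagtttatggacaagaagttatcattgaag

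Gm8186 matched all 228 coding bases of Snrpg. Snrpert was listed at 117 ± 8.35 FPKM in LysM and 95.1 ± 11.9 FPKM in K2KO (SD, n = 4, log2 fold change -0.31, limma adjusted p = 0.0462). Summed, Snrpe and Snrpert were at 199.1, 227, 239 and 231 FPKM in LysM and 155, 156, 169 and 205 FPKM in K2KO, at a log2 fold change of -0.39 (SE 0.10, limma adjusted p = 0.0292). For Snrpg the sum removed the call: its listed copy was at 94.1 ± 12.4 FPKM in LysM and 89.8 ± 3.55 FPKM in K2KO (SD, n = 4), far above the gene itself, and the summed log2 fold change was -0.09 (limma adjusted p = 0.536). Snrpc with its 3 listed copies kept its call at -0.41 (SE 0.07, limma adjusted p = 0.0124). Values of Snrpe, Snrpert and Snrpg on their own are therefore uncertain.

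No gene of the U2 snRNP and U2AF group was called by limma or by least squares, and 2 of 13 had an unadjusted p under 0.05 in either. Of these members, 9 had a log2 fold change below 0, with a median of -0.11. The largest difference was in U2af1, the small U2AF subunit that reads the AG of the 3′ splice site (chr17:31647081-31658892), at 8.31, 12.01, 12.6 and 11.9 FPKM in LysM and 7.20, 7.73, 9.27 and 8.98 FPKM in K2KO. LysM0 lay among the K2KO libraries, and the log2 fold change of -0.42 (SE 0.14) had a limma adjusted p of 0.0585. It was called with quantile normalization, with protein-coding genes only, with a block on the column number and without LysM0. U2af1 also has 2 listed copies, of which Gm10232 (32.6 FPKM over all libraries) stood above the gene, and the sum gave -0.26 (limma adjusted p = 0.125). Sf3b2, a subunit of SF3B and the most abundant gene of the group, was at 80.5 ± 1.83 and 74.6 ± 4.13 FPKM (SD, n = 4, log2 fold change -0.11, limma adjusted p = 0.191). Sf3a2, the member richest in GC, was at 43.9 ± 4.43 and 39.5 ± 4.38 FPKM (SD, n = 4), and its log2 fold change was -0.15 (limma adjusted p = 0.281).

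The 13 PRPF proteins held the largest increase of all members, and 2 were called higher and none lower. Prpf4b, a kinase that phosphorylates tri-snRNP proteins before the spliceosome is activated (chr13:34875302-34906064), was at 5.95, 5.59, 5.76 and 5.37 FPKM in LysM and at 8.30, 9.70, 8.77 and 7.43 FPKM in K2KO. Every K2KO library stood above every LysM library, the mean rose 1.51-fold, and the log2 fold change was 0.58 (SE 0.08, limma adjusted p = 0.00676). Prpf40b, the PRPF gene richest in GC (58.3%), was at 3.85 ± 0.302 and 4.08 ± 0.429 FPKM (SD, n = 4) and had a log2 difference of 0.08 (limma adjusted p = 0.560). Prpf39, a U1 snRNP protein and the member poorest in GC, had the largest difference of the uncalled PRPF genes, 0.22 (limma adjusted p = 0.162). Prpf38b, the most abundant, was at 35.4 ± 3.76 and 33.9 ± 1.53 FPKM (SD, n = 4, log2 fold change -0.05, limma adjusted p = 0.647).

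Of the 20 hnRNPs, 2 were called higher and none lower, with a median log2 fold change of 0.02. Hnrnpll, known for its control of CD45 exon choice in lymphocytes (chr17:80029487-80062334), was at 12.6, 11.1, 10.7 and 10.2 FPKM in LysM and at 16.4, 15.0, 17.7 and 15.6 FPKM in K2KO. The groups were well apart, the mean rose 1.45-fold, and the log2 fold change was 0.53 (SE 0.08, limma adjusted p = 0.00785). Hnrnpr, an RNA-binding relative of Syncrip (chr4:136310942-136359447), was at 9.72, 7.97, 10.1 and 7.78 FPKM against 12.2, 12.8, 12.7 and 10.4 FPKM. All K2KO values lay above the controls, K2KO3 and LysM2 being close, and the log2 fold change was 0.43 (SE 0.10, limma adjusted p = 0.0244).

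The most abundant member of all, Hnrnpa2b1, was at 286 ± 31.6 FPKM in LysM and 286 ± 25.4 FPKM in K2KO (SD, n = 4), at a log2 fold change of 0.00 (SE 0.09, limma adjusted p = 0.991). Hnrnph2 (log2 fold change 0.25, limma adjusted p = 0.0486) and Hnrnpl, a repressor of exons with CA repeats (-0.22, limma adjusted p = 0.0412), did not overlap between groups and passed the adjusted p, but both missed the size limit. Hnrnpa1 was low on its own, at 7.87 ± 1.32 and 8.91 ± 1.55 FPKM (SD, n = 4, log2 fold change 0.18, limma adjusted p = 0.390). With its 6 listed copies it was at 29.0, 26.6, 29.9 and 25.7 FPKM in LysM and 31.5, 33.0, 36.5 and 37.7 FPKM in K2KO, without overlap, and that sum was called (0.32, SE 0.08, limma adjusted p = 0.0257). Likewise Srsf10 with 2 copies was called at 0.28 (limma adjusted p = 0.0370) and on its own was not (0.10, limma adjusted p = 0.383). These sums were chosen after the values of the genes were seen.

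**Figure D2:**
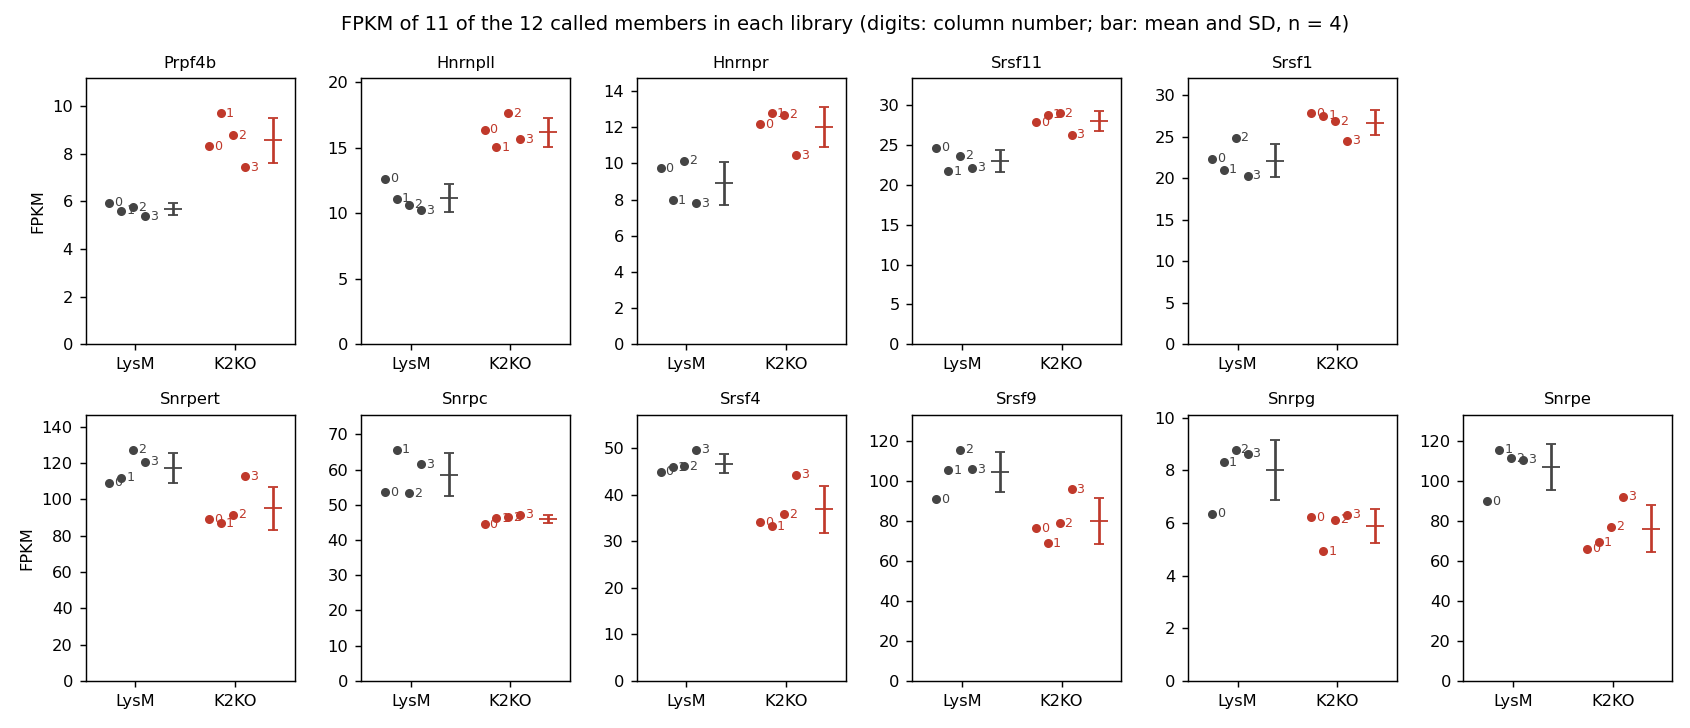
FPKM (vertical axes, each from 0) of 11 of the 12 called members in the 4 LysM (grey) and 4 K2KO (red) libraries, with the column number beside each point and the mean and SD at the right. Prpf4b and Hnrnpll are well separated, at 5.37 to 5.95 against 7.43 to 9.70 FPKM and at 10.2 to 12.6 against 15.0 to 17.7 FPKM, and K2KO3 is the K2KO library nearest to the controls in every panel shown but that of Hnrnpll.

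The change of the members followed the base composition of their transcripts. Spearman's rho of the log2 fold change with transcript GC content was -0.42 over the 68 members and -0.43 over the 10899 tested genes with a GC content, so the members shared a trend of the whole transcriptome. The rho over members was -0.49 with GC content taken over all exons and -0.31 over the coding sequence alone. These are descriptions across genes, which share the same 8 libraries. Within the roles the rho was -0.63 in the PRPF proteins (n = 13), -0.54 in the SR proteins (n = 10), -0.48 in the hnRNPs (n = 20), -0.10 in the Sm and U snRNP proteins (n = 12) and -0.09 in the U2 group (n = 13).

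All 6 members called higher were among the 32 members with a GC content up to 45.5%, a range in which 22.4% of all genes were called higher and 1.47% lower. Of the 9 members above 54.8% GC none was called higher and 2 (Srsf9 and Srsf4) were called lower, where 2.20% of all genes were called higher and 18.3% lower. The remaining lower calls were at 41.6% GC (Snrpert), 42.0% (Snrpe), 46.4% (Snrpg) and 48.6% (Snrpc). Snrpert and Snrpe thus fell in a range of GC content where few genes did.

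Over the members length gave a closer relation than GC content did, but not over all genes, nor within the hnRNPs (rho 0.33 with length). The rho of the log2 fold change with the length of the transcript was 0.69 over the members and 0.38 over all genes, and with the median length of the coding transcripts of each gene it was 0.57 and 0.32. All 14 members of at least 4264 bases had a log2 fold change above 0, and 4 of them (among them Prpf4b, Hnrnpr and Srsf1) were called higher. Among all genes of this length 16.6% were called higher and 1.73% lower, with a median of 0.13. Of the 16 members of at most 1598 bases, 1 was above 0 and 5 (Srsf9, Snrpe, Snrpg, Snrpc and Snrpert) were called lower. Among all genes as short as these 5.50% were called higher and 18.6% lower. The Sm and U snRNP genes were the shortest group, with a median transcript of 1108 bases against 3522 bases for the PRPF genes. Length and GC content were themselves related over the members (rho = -0.28).

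When each library was corrected for GC content and length by local regression, 5 members were called, all of them among the 12, against 8.25% of all genes. Prpf4b (0.33, limma adjusted p = 0.0149) and Hnrnpll (0.42, limma adjusted p = 0.0233) stayed higher, and Snrpe (-0.52, limma adjusted p = 0.0193), Snrpg (-0.40, limma adjusted p = 0.0365) and Snrpc (-0.26, limma adjusted p = 0.0464) stayed lower. The other 7 were no longer called, among them Srsf1 (0.02), Srsf11 (0.16), Srsf9 (-0.19), Srsf4 (-0.23), Hnrnpr (0.23) and Snrpert (-0.03). The corrected rho over the members was 0.13 with GC content and 0.26 with length. After correction 50 of 68 members lay below 0, with a median of -0.09, against 5807 of 10899 genes and a median of -0.02. Before correction the log2 fold change was also related to the mean FPKM of a gene (rho -0.37 over the members, -0.32 over all genes). The correction did not include this level, members were more abundant than most genes tested, and its part in the lower median was not tested. The trend with GC content and length differed between the groups. A response of the cells that follows length or GC content and a difference made in library preparation therefore cannot be told apart here.

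**Figure D3:**
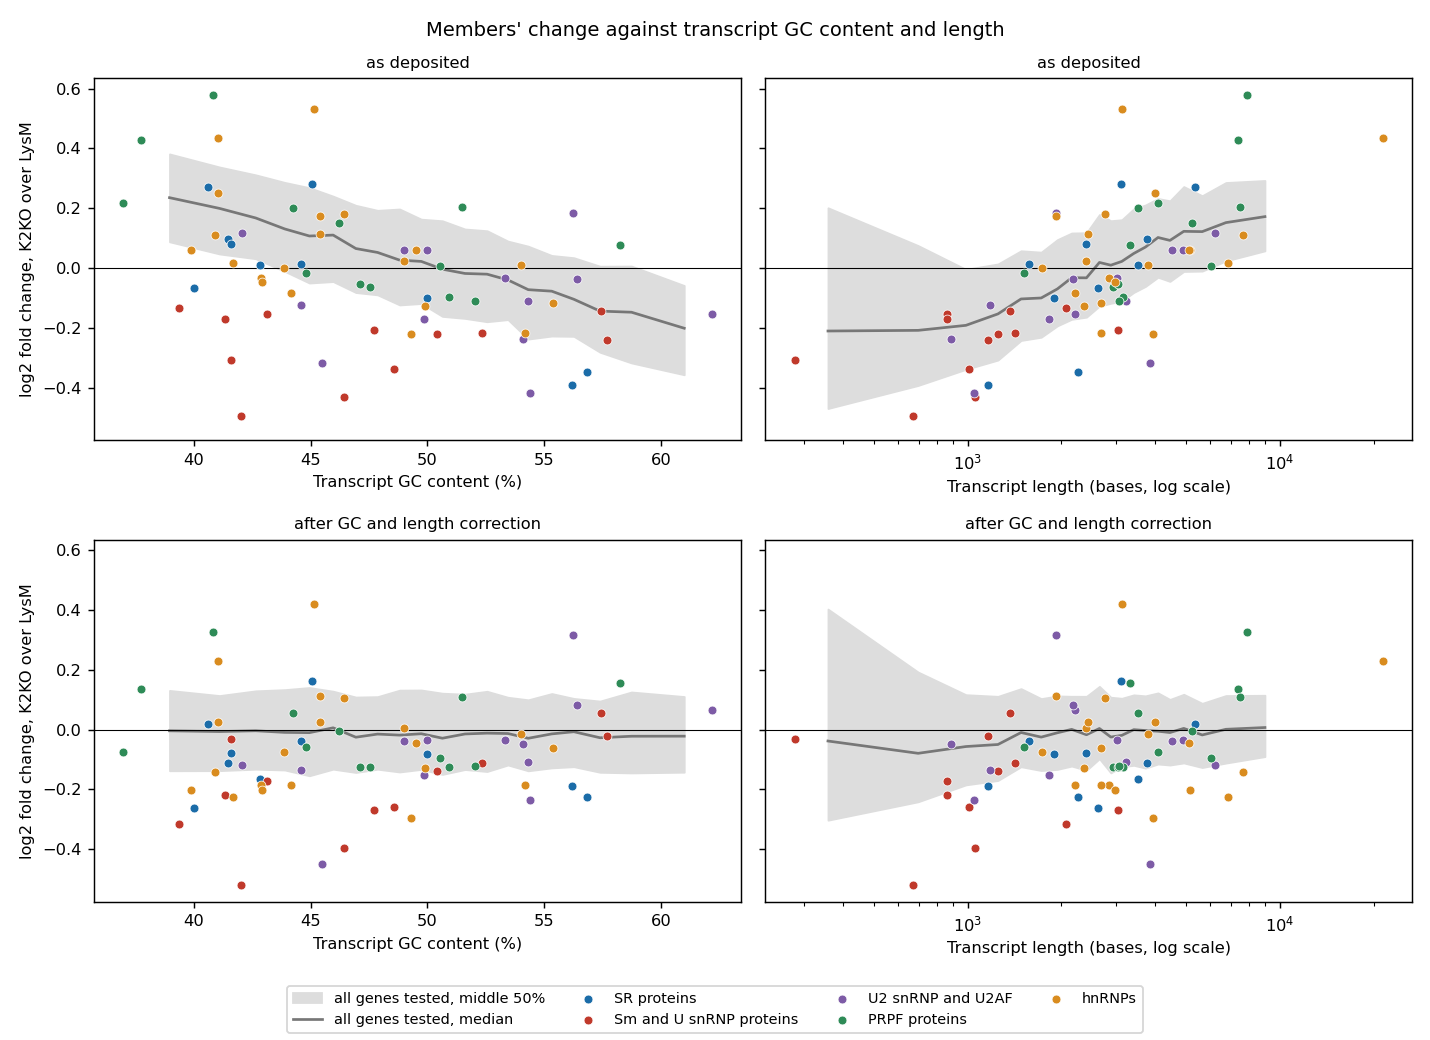
Log2 fold change (K2KO over LysM, vertical axes) of the 68 members by role (coloured points) against transcript GC content (left) and transcript length on a log axis (right), as deposited (top) and after the GC and length correction (bottom). The grey line and band are the median and the middle 50% of 10899 tested genes in 20 bins; members follow the slope of the line at the top (rho -0.42 and 0.69) and mostly lie a little below it at the bottom.

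**Figure D4:**
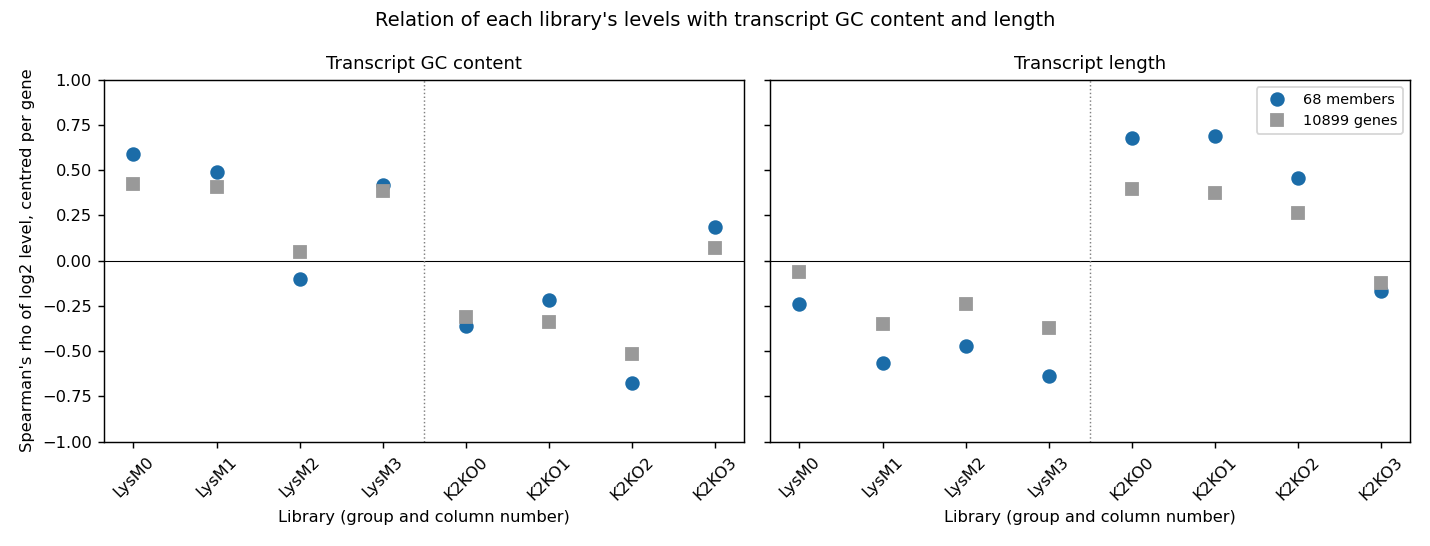
Spearman's rho (vertical axis) of each library's log2 level, centred per gene, with transcript GC content (left) and length (right), over the 68 members (circles) and 10899 genes (squares). For GC content LysM2 (-0.10 over the members) lies below the other LysM libraries and K2KO3 (0.19) above the other K2KO libraries, and for length K2KO3 (-0.17) lies below the other K2KO libraries while LysM2 (-0.47) lies among its group.

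The number of calls changed with the libraries used, among the members and among all genes alike. Without LysM1, LysM3, K2KO0, K2KO1 or K2KO2, each left out alone, 2 members were called, Prpf4b and Hnrnpll, which were called in all 8 such fits. In these 5 fits 6.74%, 3.09%, 6.47%, 6.65% and 4.54% of all genes tested were called. Without LysM2 there were 6 members (Srsf1, Srsf11, Snrpc and Hnrnpr besides these) and 9.43% of all genes. Without LysM0 there were 13 members and 21.4% of all genes, and without K2KO3 there were 18 members and 26% of all genes. With LysM2 and K2KO3 both left out 17 members were called, against 22.3% of all genes, 7 of them higher (background 12.1%) and 10 lower (background 10.2%). After the GC and length correction of that fit there were 6, against 5.15% of all genes, 1 higher (Prpf4b) and 5 lower (Snrpe, Snrpc, Srsf4, Sf3b5 and Hnrnpm). The corrected fit without LysM3 called no member (limma, 20 at an unadjusted p under 0.05) and 1.44% of all genes. The corrected fit without K2KO3 called the most members among the 8 that leave out 1 library, 11, with 11.7% of all genes. The corrected fit without LysM0 called more of all genes (747 higher and 729 lower, against 595 and 680 without K2KO3). It called 4 members higher and 6 lower. Prpf4b was called in 7 of the 8 corrected fits. The other members called after the correction held in fewer of them, Hnrnpll and Snrpe in 3 each, Snrpg in 2 and Snrpc in 1. The Sm and U snRNP genes kept all 12 values below 0 in each of the 8 uncorrected fits that leave out 1 library. Their median ran from -0.27 (without K2KO3) to -0.17 (without LysM2). In the 8 corrected fits 10 or 11 of the 12 lay below 0, with medians from -0.23 (without K2KO2) to -0.15 (without K2KO1).

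Other genes of the splicing machinery were described from lists by function. Of 152 tested, 9 (5.92%) were called higher and 10 (6.58%) lower, both below the shares of all genes tested (9.84% and 8.61%). The median log2 fold change was -0.03, and the rho was -0.39 with GC content and 0.57 with length. Lsm4, of the Sm-like ring of U6, was at 90.5 ± 6.77 FPKM in LysM and 59.8 ± 10.9 FPKM in K2KO (SD, n = 4, log2 fold change -0.61, limma adjusted p = 0.0143). Lsm6 of the same ring was lower as well (-0.43, limma adjusted p = 0.0133), and 2 of 9 tested Lsm genes were called lower and none higher. Snrnp70, the U1 70K protein, was at 248 ± 18.9 against 179.6 ± 30.7 FPKM (SD, n = 4, log2 fold change -0.48, limma adjusted p = 0.0262), one of 3 lower among 7 Snrnp genes, with Snrnp25 of the minor spliceosome next (-0.33, limma adjusted p = 0.0461). The peptidyl-prolyl isomerase gene Ppie, the only call of the PRP19 list, was lower (-0.39, limma adjusted p = 0.0377), as was Txnl4b, the only call among U5 and tri-snRNP proteins of other names (-0.37, limma adjusted p = 0.0396). Among those called higher, Dhx15, the helicase that takes spliceosomes apart, had 0.57 (limma adjusted p = 0.0139), and Matr3, a nuclear matrix RNA-binding protein, had 0.58 (limma adjusted p = 0.00772). From the same list of RNA-binding regulators as Matr3, the muscleblind gene Mbnl2 was higher (0.41, limma adjusted p = 0.0109) and Taf15 lower (-0.41, limma adjusted p = 0.0473). None of the 13 tested genes of snRNP assembly by the SMN complex was called (4 had an unadjusted p under 0.05 in limma and 5 by least squares), and none of the 11 tested genes of DNA replication and mitosis was (3 and 1).

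Of the SR-related proteins Acin1 was lower (-0.32, limma adjusted p = 0.0205) and Scaf8, which binds the tail of RNA polymerase II, higher (0.30, limma adjusted p = 0.0159). Both calls of the exon junction and export list were higher, the export gene Thoc2 (0.32, limma adjusted p = 0.0357) and Upf2 of nonsense-mediated decay (0.30, limma adjusted p = 0.0276). Of the SR protein kinases Srpk2 was higher (0.40, limma adjusted p = 0.0171) and Clk3 lower (-0.27, limma adjusted p = 0.0374). After the GC and length correction Lsm4 (-0.36), Lsm6 (-0.55), Dhx15 (0.42), Matr3 (0.29), Acin1 (-0.36) and Txnl4b (-0.34) were still called, at limma adjusted p of 0.0243, 0.0167, 0.0410, 0.0159, 0.0288 and 0.0465. Snrnp70 (-0.29, limma adjusted p = 0.0751), Snrnp25 (-0.12), Ppie (-0.26), Mbnl2 (0.16), Taf15 (-0.41, limma adjusted p = 0.0521), Scaf8 (0.19), Thoc2 (0.03), Upf2 (0.10), Srpk2 (0.14) and Clk3 (-0.13) were not. In all, 12 of the 152 genes (7.89%) were called after the correction, 2 higher and 10 lower, against 8.25% of all genes. Of these, 6 had not been called before it, all of them lower (Luc7l, Rbm5, Rbm8a, Thoc7, Tial1 and Tra2a, named after their values were seen).

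Cell type markers were read in the same libraries. All 10 macrophage markers passed the filter, 1 called higher and 2 lower, with Csf1r at 525 FPKM and Adgre1 at 436 FPKM over all libraries. Their summed level was 6866 ± 371 FPKM in LysM and 5231 ± 316 FPKM in K2KO (SD, n = 4). C1qa, the most abundant over all libraries, was at 2685 and 1338 FPKM and made up most of the difference between the sums. Lyz2, which carries Cre in both groups, was at 16.4, 22.5, 16.5 and 19.0 FPKM in LysM. In K2KO it was at 12.4, 15.6, 11.5 and 13.2 FPKM, without overlap, a separation that 23.1% of all genes tested had. Neutrophil markers summed to 255 ± 57.5 and 254 ± 61.3 FPKM (SD, n = 4), with S100a9 the most abundant at 132 and 127 FPKM, and 1 of 8 tested was lower. Marker lists of T cells (0.543 and 0.858 FPKM summed), B cells (3.19 and 4.36), dendritic cells (1.07 and 1.96), fibroblasts (0.551 and 1.64), erythroid cells (0.773 and 1.06) and mast cells (1.28 and 2.47) were near 0 in both groups, and 4 of 6 T cell and 2 of 6 fibroblast markers were under 0.1 FPKM. Osteoclast markers, which macrophages share in part, summed to 76.1 ± 10.6 and 65.9 ± 7.66 FPKM (SD, n = 4). The part of these levels in the members' changes was not tested.

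KLF proteins bind CACCC elements, so the 250 bases before the transcription start were searched for CACCC or its complement GGGTG in RefSeq promoters (GRCm38.p6). Of the 57 members with a promoter in that set 27 (47.4%) held one, against 60.2% of the tested genes with a promoter and 54.5% of all genes in the set. All 4 of the members called higher with a promoter in the set held one, and so did 2 of 5 called lower. A gene with several promoters counted where any held one. Hnrnpr and Srsf11 counted only through a promoter inside the gene, and the promoter at the outer start of each held none. Whether matches go with the direction of change was not tested. Srsf1 is printed as a member called higher whose start is the same base in RefSeq and GENCODE M21, upstream bases only, sense strand, with the match in capitals.
Srsf1, chr11:88047123-88047372: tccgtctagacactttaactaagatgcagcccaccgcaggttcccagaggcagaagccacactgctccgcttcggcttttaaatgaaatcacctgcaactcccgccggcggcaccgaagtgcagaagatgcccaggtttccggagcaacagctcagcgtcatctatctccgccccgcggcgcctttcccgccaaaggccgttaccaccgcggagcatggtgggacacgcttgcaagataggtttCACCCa

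A match describes the letters of this window only, and no binding was measured in these samples.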

How the data were processed

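Stranded total RNA libraries of BMDMs from 4 LysM and 4 K2KO mice were sequenced on an Illumina instrument. FPKM were computed by the authors with Cufflinks and deposited as 1 table of 8 columns on mm10, with no pooling. The methods name TopHat2 as the aligner and the submitters' processing notes name STAR, with no versions given in the sources used here. FPKM hold no read counts, so no counting error could be given.

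The 23761 identifiers were matched to GENCODE M21 (GRCm38; 23645 matched). GC content and length are those of the longest coding transcript, or of the longest transcript where none codes. Genes whose mean over all libraries reached 1 FPKM (10920) were fitted on log2(FPKM + 0.1) with limma 3.58.1 in R 4.3.3 (eBayes with an intensity trend, no covariate) and adjusted by the Benjamini-Hochberg method. For single values an exact permutation test, two-sided, set 4 against 4 libraries (35 splits, smallest p 0.0286). Copies were found with blastn. Replicates are separate mice.

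The members and lists were chosen with earlier results of these data known. Named genes are Klf2, in each role the most abundant member, the called members and the uncalled member with the largest difference, the 3 members lowest and the 3 highest in GC content, and in each list the 2 called genes with the largest change in each direction. Copies, Hnrnpl, Hnrnpa1, Srsf10 and the members named when LysM2 and K2KO3 were left out were chosen after their values were seen. 1 called member is counted but not reported by name here.

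Alternatives were pseudocounts of 1 and 0.01, a filter of 0.1 FPKM or none, quantile and upper-quartile scaling, no intensity trend, least squares per gene, each library's local regression (span 0.3) on GC content, with or without length, a block on the column number, protein-coding genes only, other limits on the fold change and each library left out. The fits without LysM2 and K2KO3, the corrected fits without each library and the sums with copies were chosen after seeing the data.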

Additional observations from a re-analysis of the deposited data

Results flagged for a closer look

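Among 48 groups of 4 libraries (24 genes, Klf2 and the named members, in each genotype), 2 held a library whose gap to its neighbour, as a share of the group's range, passed Dixon's 95% limit. Chance gives such a gap in about 1 in 20 groups. Snrpg was at 4.93 FPKM in K2KO1, below the 6.12 to 6.30 FPKM of the other K2KO libraries. Srsf5 was at 199.98 FPKM in K2KO2, above the 171 to 175 FPKM of the others.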

How the results depend on the processing

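The call of 12 members fell to 3 with no filter on low values (all genes tested 483 calls), to 3 by least squares per gene (746), all 3 higher in both, to 5 with the GC and length correction (899), to 6 with the GC correction alone (1154) and to 0 at a log2 change over 1 (110), since no member changed that much (limma; 24 members had an unadjusted p under 0.05). Leaving out 1 library gave 2 to 18 member calls and 337 to 2837 calls among all genes, and with LysM2 and K2KO3 left out and the correction there were 6 and 561. With copies added 8 members were called higher and 4 lower, against 1072 higher and 937 lower of all 10902 genes in that fit. The column numbers did not pair the libraries (correlations of same-numbered libraries -0.070 to 0.073). A replicate block on them gave 14 member calls and 2057 calls among all genes tested (limma), and with the correction 4 and 715. Without the correction the block added U2af1 (also called with quantile normalization and with protein-coding genes only) and Sf3b5. The members' median log2 fold change was 0.026 with quantile normalization, -0.088 with the correction (alone or with the replicate block), -0.090 with LysM2 and K2KO3 also left out, -0.096 with GC alone, and -0.052 to -0.0013 with 1 library left out. The rho with GC content was -0.50 to -0.32 with 1 library left out, 0.13 with the correction (alone or with the replicate block), 0.055 with GC alone and 0.098 with the correction and LysM2 and K2KO3 left out. Signs turned for uncalled genes only. With the correction (alone or with the replicate block) and then with LysM2 and K2KO3 left out besides, Hnrnpa2b1 was at -0.074 and -0.039, Prpf39 at -0.076 and -0.058, Sf3a2 at 0.064 and 0.0092, Srsf5 at -0.038 and -0.032, and Klf2 at 0.049 and 0.12. With GC alone Hnrnpa2b1 was at -0.13, Sf3a2 at 0.031 and Srsf5 at -0.095. With 1 library left out the range was -0.050 to 0.076 for Hnrnpa2b1, -0.039 to 0.035 for Srsf5 and -0.12 to 0.0034 for Prpf38b. With quantile normalization Prpf38b was at 0.0018, Prpf40b at -0.018, Sf3b2 at 0.019 and Srsf2 at 0.036, and Prpf40b was at -0.012 without LysM2 and K2KO3. The causes were not tested. Upper-quartile scaling moved the median of all genes to 0.055 and gave 7 members higher and 5 lower, with 1335 genes higher and 748 lower against 1074 and 940. Of 574 values of Klf2 and the named members under the alternatives, 431 kept their sign and side of the threshold, 101 lost the call, 11 gained it and 31 changed sign.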
